A study of Mus musculus with 16 samples.

Results

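The desmosome and cornified envelope genes described here were followed across the epithelium and mesenchyme of embryonic mouse salivary glands. They are 10 in number: the desmogleins Dsg2 and Dsg3, the desmocollins Dsc2 and Dsc3, plakoglobin (Jup), plakophilin 1 (Pkp1), desmoplakin (Dsp), Perp, sciellin (Scel) and 14-3-3 sigma (Sfn). They were a chosen list, matched by symbol to the authors' deposited table of 23400 features, where each of the 10 matched 1 feature. Their counts were taken from the raw table of 48709 gene features. All 10 passed the filter on low counts. RNA had been sequenced from parotid epithelium, submandibular epithelium, parotid mesenchyme and submandibular mesenchyme, 4 libraries each, all from wild-type ICR mice, an outbred strain, at embryonic day 13, with no treatment or transgene in any group. Per the labels' protocol the 4 replicates were biologically independent. The number of embryos behind a library, and the way the layers were parted, are not stated in the labels. The design text also speaks of glands kept in culture, while the titles and the protocol speak of glands taken at embryonic day 13.

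Desmosomes are adhesive junctions that fasten epithelial cells to each other and anchor their keratin filaments. The desmogleins and desmocollins are cadherins whose outer domains bind between cells, plakoglobin and the plakophilins bind their tails under the membrane, and desmoplakin ties that plaque to keratin. The cornified envelope is the cross-linked protein shell that surface cells of stratified epithelia such as skin and oral mucosa build late in their differentiation. Salivary epithelium grows from oral epithelium as a branching bud with a duct, and the mesenchyme around it is loose connective tissue.

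The labels of the layers were checked against marker genes. The 10 epithelial markers summed to 1839 to 2322 CPM (counts scaled to library size, after TMM scaling) in parotid epithelium and 2230 to 2756 CPM in submandibular epithelium, against 12.2 to 32.7 CPM in parotid mesenchyme and 30.4 to 55.5 CPM in submandibular mesenchyme. The 10 mesenchymal markers summed to 131 to 434 CPM in parotid epithelium and 42.9 to 330 CPM in submandibular epithelium, against 13580 CPM or more in every mesenchymal library. Gene counts of a library ran between 16912258 and 27646844, and 3 counts corresponded to 0.108 to 0.164 CPM. Submandibular epithelium replicate 3 was the highest of its group for 9 of the 10 genes, and parotid mesenchyme replicate 1 had the largest sum of epithelial markers in its group. Where leaving out a single library moved a called difference by over 1.5 times or changed a call, the value without it is given.

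Positions are GENCODE gene bounds on GRCm38. The genes outside the desmosomal cadherin cluster were Scel (chr14:103513342-103612797, plus strand), Sfn (chr4:133600556-133602168, minus strand), Perp (chr10:18845020-18857073, plus strand), Dsp (chr13:38151294-38198577, plus strand), Jup (chr11:100368958-100397763, minus strand) and Pkp1 (chr1:135871395-135919207, minus strand). Sfn was a single exon of 1613 bases, while the exons of Dsp summed to 9659 bases. The libraries did not mark strand. Dsg2 shared 330 exon bases with the antisense gene Gm16090, which had 129 counts in all libraries together, and Dsp shared 499 with the opposite-strand Gm10129, which had 12.

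Of the 10 genes, 4 matched an entry in the RefSeq promoter table (GRCm38.p6). The 250 bases before the start are shown because the differences of these genes between parotid and submandibular epithelium, given further on, ran from the largest of the 10 (Scel) through Sfn and Dsp to one near 0 (Jup). Capitals mark matches, on either strand, to the 4 motifs searched, which were the AP-1 element TGANTCA, the E-box CAGGTG, the GC box GGGCGG and the TATA box TATAAA.
Scel: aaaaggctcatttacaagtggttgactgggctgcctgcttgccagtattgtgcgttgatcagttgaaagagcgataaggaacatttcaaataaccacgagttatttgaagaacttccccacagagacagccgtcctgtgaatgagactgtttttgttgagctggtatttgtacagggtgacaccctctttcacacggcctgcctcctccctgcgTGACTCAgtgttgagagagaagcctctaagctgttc
Sfn: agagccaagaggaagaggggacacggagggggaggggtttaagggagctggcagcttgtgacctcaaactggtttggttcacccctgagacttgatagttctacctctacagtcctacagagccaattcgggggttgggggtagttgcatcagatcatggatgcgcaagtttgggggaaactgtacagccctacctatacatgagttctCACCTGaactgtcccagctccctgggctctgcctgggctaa
Dsp: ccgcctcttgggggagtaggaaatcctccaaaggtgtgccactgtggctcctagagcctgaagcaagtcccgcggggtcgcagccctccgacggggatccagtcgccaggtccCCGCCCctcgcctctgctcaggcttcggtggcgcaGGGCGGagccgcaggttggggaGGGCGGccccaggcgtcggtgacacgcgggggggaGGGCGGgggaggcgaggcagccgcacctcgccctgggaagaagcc
Jup: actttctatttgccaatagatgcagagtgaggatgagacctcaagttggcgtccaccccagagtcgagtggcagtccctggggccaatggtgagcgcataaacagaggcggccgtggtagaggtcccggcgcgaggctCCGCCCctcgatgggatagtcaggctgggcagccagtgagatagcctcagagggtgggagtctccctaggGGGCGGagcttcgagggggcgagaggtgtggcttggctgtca
The Scel window (chr14:103513091-103513340, plus strand) held an AP-1 match that began 36 bases before the start, a motif found in 6.75% of the 32851 promoter windows of this length. The Sfn window (chr4:133602169-133602418, minus strand) held CAGGTG read on the opposite strand, 41 bases before the start, and 17.2% of all windows held it. Dsp (chr13:38151044-38151293, plus strand) had 4 GC boxes and Jup (chr11:100397791-100398040, minus strand) had 2, and 32.7% of windows had at least 1. TATAAA, found in 12.4% of windows, was in none of the 4. A match is a run of letters and says nothing of binding in these tissues.

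**Figure D1:**
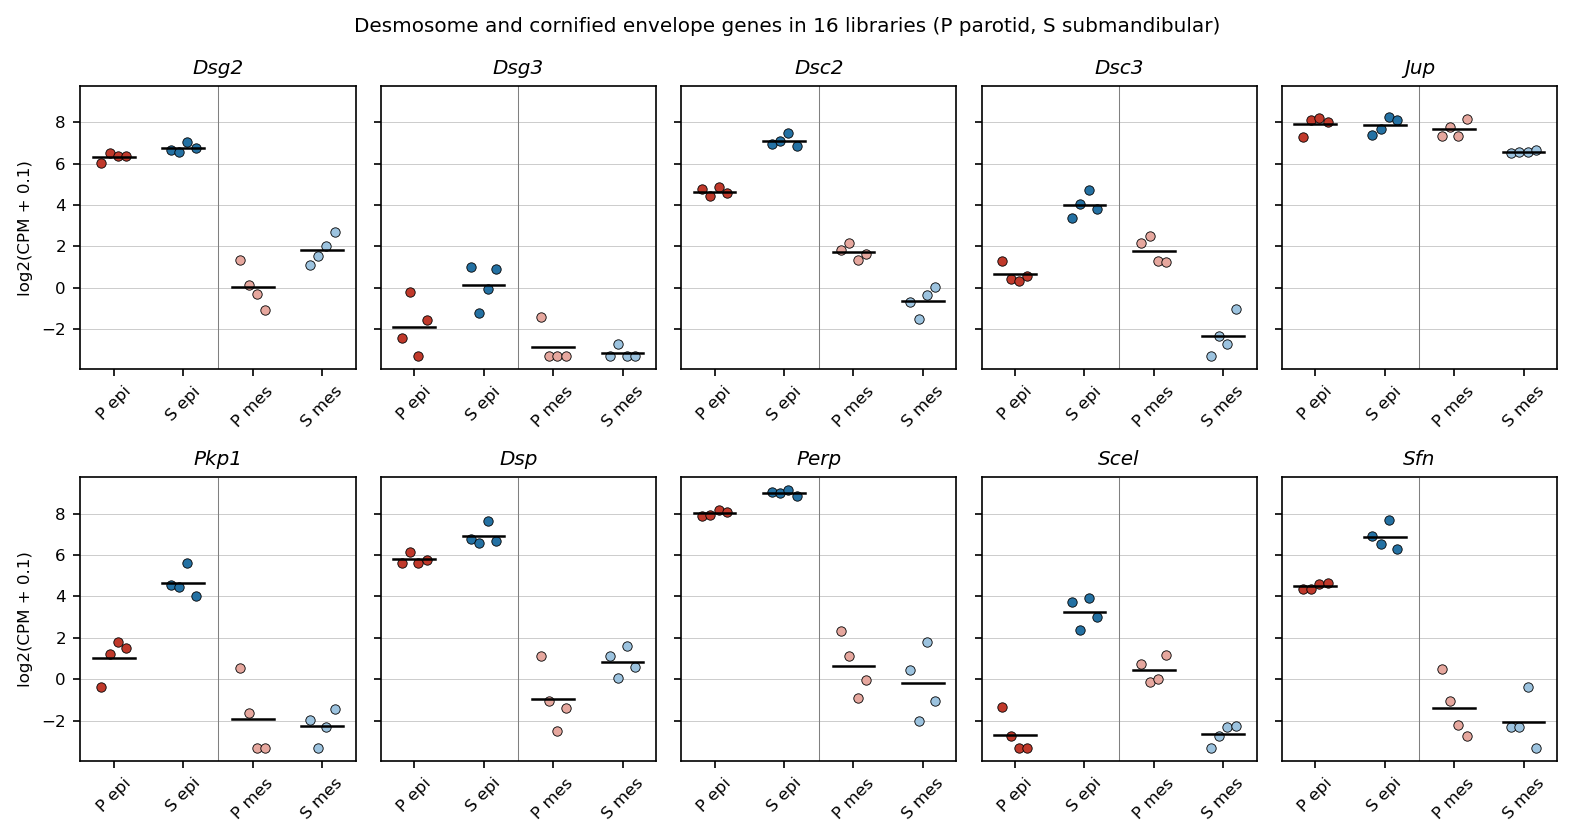
Level of each gene in each of the 16 libraries, as log2(CPM + 0.1), for parotid epithelium, submandibular epithelium, parotid mesenchyme and submandibular mesenchyme from left to right; points are libraries and bars are means of 4. Scel, Dsc2 and Dsc3 lie lower in parotid than in submandibular epithelium and higher in parotid than in submandibular mesenchyme, and Jup lies at a high level in every group.

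The first comparison asked how the epithelium of the glands differed. Of the 10 genes, 6 were lower in parotid than in submandibular epithelium and 0 were higher, at a Benjamini-Hochberg adjusted p under 0.05 in edgeR's quasi-likelihood test (4 libraries a group; one fit over 16 libraries and 18191 genes). Over all genes tested, 20.9% were called, 9.72% lower and 11.2% higher. The 6 were Scel, Sfn, Dsc2, Dsc3, Pkp1 and Dsp, and the median log2 fold change of the 10 genes was -2.31, against -0.002 over all genes. Libraries of parotid epithelium lay below every library of submandibular epithelium for 8 of the 10 genes, against 10.7% of all genes below and 9.97% above. In bulk tissue, fewer cells of a type and less RNA per cell cannot be told apart.

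The 4 cadherin genes lay in a cluster: Dsc3 (chr18:19960930-20002351, minus strand), Dsc2 (chr18:20030633-20059554, minus strand), Dsg3 (chr18:20510274-20547459, plus strand) and Dsg2 (chr18:20558074-20604521, plus strand). Dsg2, the desmoglein of simple and basal epithelia, was at 64.4, 92.3, 82.5 and 81.4 CPM in parotid epithelium, against 100.02, 93.7, 131 and 106 CPM in submandibular epithelium. The groups lay side by side without overlap, but the difference of -0.43 (log2, SE 0.30) was not called (adjusted p = 0.341), though it was in a fit to the 8 epithelial libraries alone (adjusted p = 0.0455). Dsg3, the desmoglein of stratified epithelium and the antigen of pemphigus vulgaris in human patients, was scarce, with 0.0848, 0.751, 0 and 0.241 CPM in parotid epithelium, against 1.87, 0.322, 0.849 and 1.80 CPM in submandibular epithelium. Its groups overlapped, and the difference of -2.17 (SE 0.84) was not called (adjusted p = 0.0779). It was called with limma-voom (log2 -2.79, adjusted p = 0.0298) and without parotid epithelium replicate 2 (log2 -3.42, edgeR adjusted p = 0.027). Per exon length, Dsg2 made up 98.7% ± 0.599 of the desmoglein transcripts in parotid epithelium and 96.5% ± 1.47 in submandibular epithelium (SD, n = 4 each).

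The desmocollins differed more. Dsc2, the widely expressed desmocollin, was at 26.8, 21.5, 28.99 and 23.4 CPM in parotid epithelium, against 123, 136, 177 and 115 CPM in submandibular epithelium. Every parotid library was far below every submandibular one, a 5.48-fold lower level (log2 -2.45, SE 0.19, edgeR adjusted p = 2.55e-07). Dsc3, a desmocollin of basal and stratified epithelium, was at 2.33, 1.22, 1.13 and 1.397 CPM in parotid epithelium, against 10.3, 16.2, 26.04 and 13.9 CPM in submandibular epithelium. Again the groups were apart, with a 10.8-fold lower level in parotid (log2 -3.44, SE 0.44, adjusted p = 4.6e-05). Dsc2 nevertheless stayed the main desmocollin in both, at 94.1% ± 1.88 of the desmocollin transcripts per length in parotid epithelium and 89.4% ± 2.08 in submandibular epithelium (SD, n = 4 each).

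Within the plaque, plakoglobin and plakophilin 1 stood at opposite ends. Jup was at 156, 278, 299 and 256 CPM in parotid epithelium, against 169, 203, 308 and 272 CPM in submandibular epithelium. The groups overlapped almost wholly, with a log2 difference of 0.06 (SE 0.22, interval -0.38 to 0.49, edgeR adjusted p = 0.889). Pkp1, the plakophilin of stratified epithelium, was at 0.678, 2.25, 3.35 and 2.70 CPM in parotid epithelium, against 23.1, 21.6, 48.9 and 15.99 CPM in submandibular epithelium. No library overlapped, and the level was 12.2-fold lower in parotid (log2 -3.61, SE 0.70, adjusted p = 0.00212). Dsp, the link to keratin, was at 48.6, 71.2, 49.5 and 54.2 CPM in parotid epithelium, against 110.3, 97.1, 199 and 103 CPM in submandibular epithelium.

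Dsp libraries did not overlap, with replicate 3 of submandibular epithelium far above its group. The 2.28-fold lower level in parotid (log2 -1.19, SE 0.38) passed the threshold narrowly (edgeR adjusted p = 0.0402). The call was lost with DESeq2 (adjusted p = 0.157), without the filter (adjusted p = 0.128) and when any of 8 libraries was left out (adjusted p = 0.0518 to 0.134), which were all 4 of parotid epithelium, submandibular epithelium replicates 1 and 3, parotid mesenchyme replicate 2 and submandibular mesenchyme replicate 1. Perp, a tetraspan membrane protein of desmosomes that mice need for stable adhesion in skin, was at 236, 249, 293 and 274 CPM in parotid epithelium, against 522, 505, 559 and 471 CPM in submandibular epithelium. All parotid libraries were below all submandibular ones and close to each other. The 1.95-fold lower level (log2 -0.97, SE 0.45) was not called (adjusted p = 0.143), but was with limma-voom (adjusted p = 0.000478) and in a fit to the 8 epithelial libraries alone (adjusted p = 6.84e-05).

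Scel, a precursor of the cornified envelope, differed most among the 10. It had 7, 1, 0 and 0 counts in the parotid epithelial libraries, or 0.297, 0.0469, 0 and 0 CPM, against 13.2, 5.16, 15.01 and 7.99 CPM in submandibular epithelium. Transcripts were thus at the edge of detection in parotid epithelium and present in all submandibular libraries. The fitted log2 fold change was -6.74 (SE 0.68, edgeR adjusted p = 4e-06), and -8.88 without parotid epithelium replicate 1, which held 7 of the 8 counts. Sfn, a 14-3-3 protein of stratified epithelium that mouse epidermis needs to differentiate, was at 20.7, 20.2, 24.4 and 24.6 CPM in parotid epithelium, against 120.4, 91.6, 204 and 79.2 CPM in submandibular epithelium. The parotid libraries were tightly grouped and the submandibular ones spread, all above them, for a 5.51-fold lower level in parotid (log2 -2.46, SE 0.41, adjusted p = 0.000671).

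Without submandibular epithelium replicate 3 and parotid mesenchyme replicate 1, 6 of the 10 genes were again called lower and 0 higher. Other cell types were measured beside this difference. Macrophage and leukocyte markers were called higher in parotid epithelium for 7 of 8 genes and summed to 15.9 to 25.0 CPM there, against 3.16 to 8.22 CPM in submandibular epithelium. Markers of oral or skin surface epithelium were called lower for 5 of the 6 tested and summed to 23.7 to 27.4 CPM in parotid epithelium, against 111 to 131 CPM in submandibular epithelium. All 8 genes of this list recur among the stratified keratins and cornified envelope genes counted further on, so those counts are not separate results. Krt4, a keratin of oral mucosa, was at most 0.0482 CPM in parotid epithelium, against 37.2 to 47.1 CPM in submandibular epithelium. Krt4 and Krt6a, both on this list, passed the filter only through submandibular epithelium and so could not have been called higher. Mesenchymal markers, whose sums are given above, were called higher in parotid epithelium for 4 of 10 genes and lower for 0. Of the other lists, endothelial markers were called higher for 2 of 8 and lower for 1. Markers of cartilage, neurons, Schwann cells and skeletal muscle had 1 called higher each and 0 lower, and erythroid markers had 0 called. Cartilage markers summed to 1493 to 2404 CPM in parotid epithelium, against 179 to 218 CPM in parotid mesenchyme. Schwann cell markers summed to 398 to 661 CPM and 21.1 to 88.0 CPM there. Both sums were also larger in submandibular epithelium than in submandibular mesenchyme. The part of other cell types in the result was not tested.

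The balance among the junction genes was compared as ratios of counts within a library, which scaling cannot move. Pkp1 over Dsp was 0.0144, 0.0319, 0.0681 and 0.0502 in parotid epithelium, against 0.209, 0.222, 0.245 and 0.156 in submandibular epithelium. Jup over Dsp was 3.21, 3.90, 6.04 and 4.73 in parotid epithelium, against 1.53, 2.09, 1.54 and 2.65 in submandibular epithelium. Neither ratio overlapped between the glands, with log2 differences of -2.54 and 1.19. Each gave p = 0.0286, the smallest that an exact two-sided permutation test over 70 splits can give, and 0.0571 after adjustment over the 4 ratios compared. The genes were chosen with earlier results of these data known, and the p-values of the ratios do not allow for that choice. Dsc3 over Dsc2 (log2 difference -0.97, exact permutation p = 0.0571, adjusted 0.0762) and Dsg3 over Dsg2 (-2.32, exact p = 0.114, adjusted 0.114) overlapped between the glands.

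Dsg2 over Dsc2, chosen after its values were seen and so not tested, was 2.41, 4.29, 2.85 and 3.47 in parotid epithelium, against 0.810, 0.687, 0.739 and 0.923 in submandibular epithelium. Dsg2 counts thus exceeded Dsc2 counts in every parotid library and in no submandibular one. These ratios are not per length, and the exons of Dsg2 sum to 8268 bases, against 5277 for Dsc2. Among Pkp1, Pkp2 and Pkp3 per length, Pkp3, which joins plakophilin 1 in many epithelia, held the largest share. It was 92.6% ± 1.42 in parotid epithelium and 72.7% ± 5.72 in submandibular epithelium (SD, n = 4 each). Pkp1 held 3.26% ± 1.23 in parotid epithelium and 22.5% ± 6.03 in submandibular epithelium, and its ranges of 1.53 to 4.31% and 16.99 to 30.8% did not meet. Pkp4 was left out of these shares. It averaged 7.79 CPM per kilobase of exon in parotid and 9.69 in submandibular epithelium, against 11.95 and 16.6 for Pkp3.

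Levels between genes were ordered per kilobase of exon. In parotid epithelium the order was Perp at 135 ± 13.0 CPM per kilobase, Jup at 38.4 ± 9.85, Sfn at 13.9 ± 1.48, Dsg2 at 9.69 ± 1.404, Dsp at 5.78 ± 1.1 and Dsc2 at 4.77 ± 0.635 (SD, n = 4). Pkp1 and Dsc3 followed at 0.447 ± 0.226 and 0.281 ± 0.102 CPM per kilobase, and Dsg3 and Scel were under 0.04. In submandibular epithelium the order was Perp at 263 ± 18.9 CPM per kilobase, Sfn at 76.8 ± 34.9, Jup at 37.0 ± 9.83, Dsc2 at 26.1 ± 5.20, Dsp at 13.2 ± 5.01, Dsg2 at 13.0 ± 1.962, Pkp1 at 5.45 ± 2.92, Scel at 4.13 ± 1.82, Dsc3 at 3.08 ± 1.25 and Dsg3 at 0.173 ± 0.108. Neighbours whose mean ± SD overlapped were Dsp and Dsc2, Pkp1 and Dsc3, and Dsg3 and Scel in parotid epithelium. In submandibular epithelium they were Sfn and Jup, Jup and Dsc2, Dsp and Dsg2, Pkp1 and Scel, and Scel and Dsc3.

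**Figure D2:**
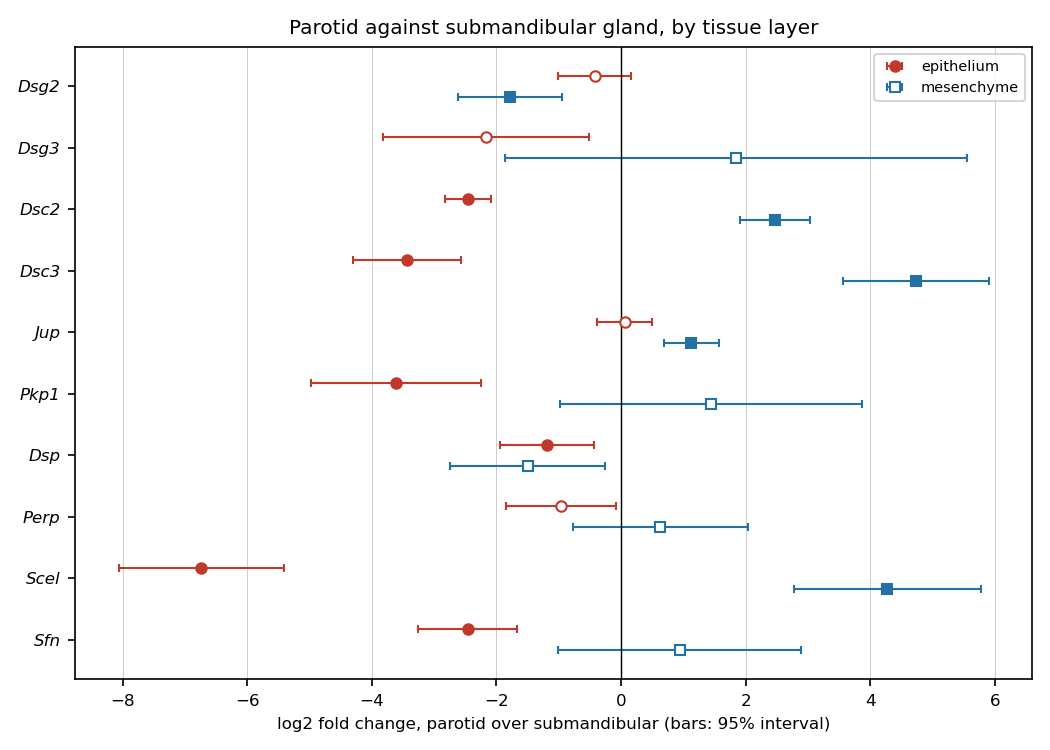
Log2 fold change of each gene, parotid over submandibular, in epithelium (circles) and mesenchyme (squares), with bars of 95% intervals and filled symbols at an edgeR adjusted p under 0.05. Scel runs from -6.74 in epithelium to 4.27 in mesenchyme, and Dsc2 from -2.45 to 2.47.

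The same comparison in mesenchyme went another way. Of the 10 genes, 4 were higher in parotid than in submandibular mesenchyme (Scel, Dsc2, Dsc3 and Jup) and 1 was lower (Dsg2), while 34.5% of all genes were called, 20.8% higher and 13.7% lower. The median log2 fold change of the 10 genes was 1.29, against 0.036 over all genes. Libraries of parotid mesenchyme lay above every submandibular one for 4 of the 10 genes, and for 21.7% of all genes. All these levels except those of Jup were low, and several rested on few counts.

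Scel was at 1.56, 0.822, 0.908 and 2.15 CPM in parotid mesenchyme, against 0, 0.0499, 0.103 and 0.109 CPM in submandibular mesenchyme, which had 5 counts in all. The parotid libraries, with 15 to 46 counts each, were all above, and the log2 fold change was 4.27 (SE 0.76, edgeR adjusted p = 0.000346). Dsc3 was at 4.35, 5.53, 2.37 and 2.24 CPM in parotid mesenchyme, against 0, 0.0999, 0.0516 and 0.381 CPM in submandibular mesenchyme. The groups were apart, with a log2 fold change of 4.73 (SE 0.59, adjusted p = 1.14e-05), or 6.00 without submandibular replicate 4. Dsc2 was at 3.38, 4.33, 2.45 and 2.99 CPM in parotid mesenchyme, against 0.510, 0.250, 0.671 and 0.926 CPM in submandibular mesenchyme. It too did not overlap, and was 5.54-fold higher in parotid (log2 2.47, SE 0.28, adjusted p = 4.38e-06).

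Jup, which also takes part in adherens junctions and so is not bound to desmosome-bearing cells, was abundant in mesenchyme. It was at 160.1, 221, 159.8 and 288 CPM in parotid mesenchyme, against 89.8, 95.4, 92.7 and 101 CPM in submandibular mesenchyme. The submandibular libraries were close together and all below the parotid ones, for a 2.19-fold higher level in parotid (log2 1.13, SE 0.23, edgeR adjusted p = 0.00109). Dsg2 ran the other way, at 2.47, 0.986, 0.711 and 0.373 CPM in parotid mesenchyme, against 2.04, 2.80, 3.92 and 6.43 CPM in submandibular mesenchyme. Parotid replicate 1 lay within the submandibular range and the other parotid libraries below it (log2 -1.78, SE 0.43, adjusted p = 0.00432; -2.47 without replicate 1).

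Dsp had 2.04, 0.384, 0.0790 and 0.280 CPM in parotid mesenchyme, against 2.09, 0.949, 2.94 and 1.42 CPM in submandibular mesenchyme. The groups overlapped through parotid replicate 1 alone, and the log2 fold change of -1.50 (SE 0.64) was not called with it (edgeR adjusted p = 0.0822) and was called without it (log2 -2.96, adjusted p = 0.00124). Sfn ranged over 0.0467 to 1.29 CPM in parotid mesenchyme, against 0 to 0.671 CPM in submandibular mesenchyme, and Perp over 0.434 to 4.99 CPM, against 0.150 to 3.35 CPM. Pkp1 ranged over 0 to 1.34 CPM in parotid mesenchyme, against 0 to 0.272 CPM in submandibular mesenchyme. These 3 genes overlapped and were not called, and each was highest in parotid replicate 1; without it their log2 differences changed sign, to -0.358, -0.27 and -0.991. Dsg3 had 5 counts in parotid mesenchyme, all in replicate 1, and 1 in submandibular mesenchyme, a ratio of 4.62 (95% exact interval 0.517 to 219, counting error only).

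Epithelial markers in mesenchyme were measured beside these results. They summed to 32.7, 12.2, 13.4 and 19.5 CPM in parotid mesenchyme, against 42.7, 40.3, 55.5 and 30.4 CPM in submandibular mesenchyme; 1 of the 10 was called higher in parotid (Cldn3) and 1 lower (Epcam). Markers of skeletal muscle summed to 361 to 1442 CPM in parotid mesenchyme, against 163 to 342 CPM in submandibular mesenchyme, and 6 of 7 were called higher. Neuron markers summed to 1140 to 2024 CPM in parotid mesenchyme, against 88.1 to 218 CPM in submandibular mesenchyme, with 3 of 6 called higher and 2 lower. Markers of oral or skin surface epithelium had 2 called higher and 1 lower of the 6 tested. They summed to 20.6 to 23.9 CPM in parotid mesenchyme, against 25.0 to 28.5 CPM in submandibular mesenchyme. The part of muscle, nerve or surface epithelium in the levels of Scel, Dsc2, Dsc3 and Jup was not tested.

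**Figure D3:**
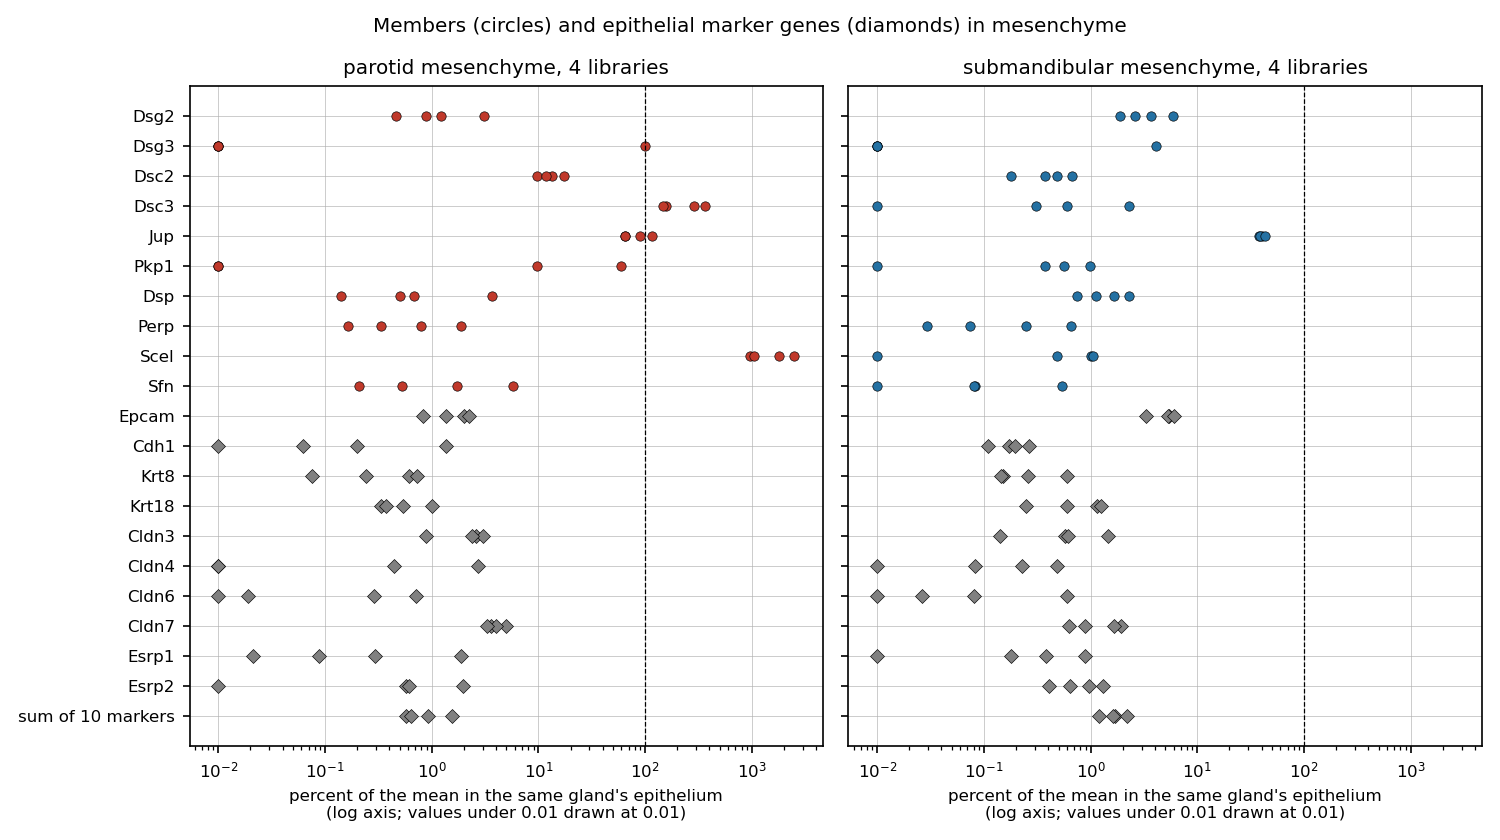
Level in each mesenchymal library as a percent of the mean in the epithelium of the same gland, on a log axis, for the 10 genes (circles), 10 epithelial marker genes and their sum (diamonds), with parotid left and submandibular right. In parotid mesenchyme Scel lies at 956 to 2499% and Dsc3 at 147 to 364%, while the marker sum lies at 0.577 to 1.55%.

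Set against the epithelium of the same gland, the mesenchymal level of the epithelial markers was 0.923% in parotid and 1.68% in submandibular gland as a sum of means, and single markers ran from 0.257 to 3.97% in parotid and from 0.178 to 5.03% in submandibular gland. In parotid gland Perp (0.798%), Dsp (1.25%), Dsg2 (1.42%) and Sfn (2.04%) lay within that range. Dsc2 (13.1%), Pkp1 (17.4%), Dsg3 (24.9%), Jup (83.8%), Dsc3 (238%) and Scel (1581%) lay above it. Pkp1 and Dsg3 did so only through parotid mesenchyme replicate 1, without which Pkp1 was at 3.26%, Dsg3 at 0%, and the markers at 0.0870 to 3.64%. Dsc2 (12.9%), Jup (90.2%), Dsc3 (222%) and Scel (1504%) were above the range without it too. In submandibular gland only Jup (39.9%) lay above the range of its markers, and the other 9 genes were between 0.176 and 3.53%. These shares are descriptions, and for Scel the parotid epithelial mean rests on 8 counts.

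**Figure D4:**
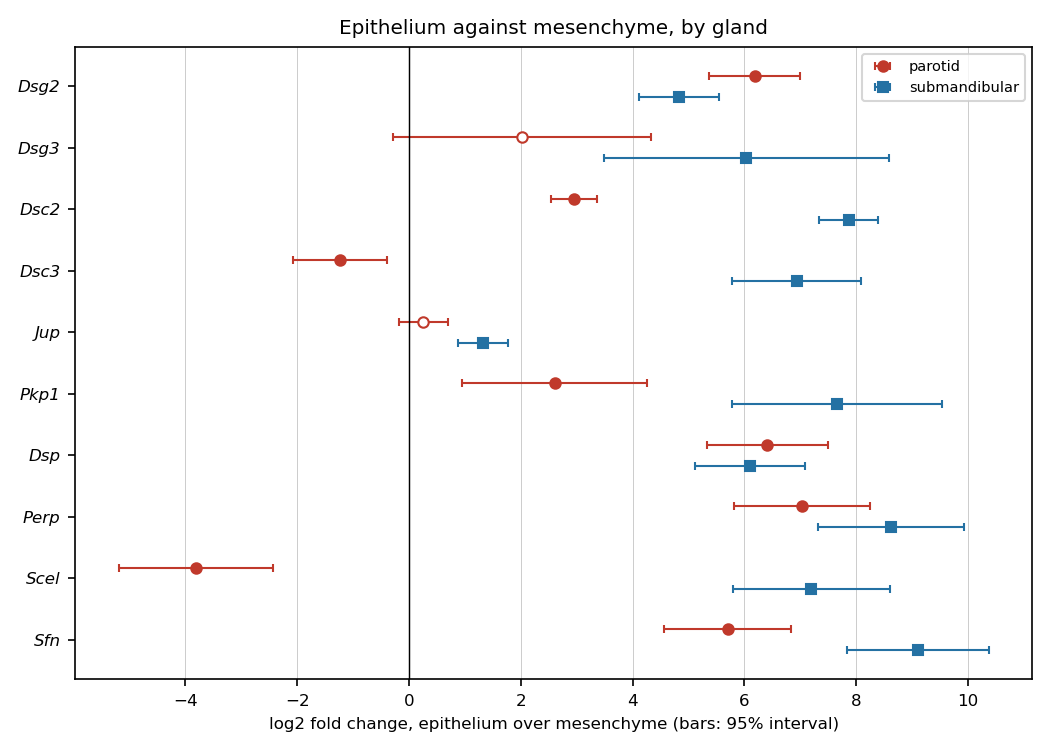
Log2 fold change of each gene, epithelium over mesenchyme, in parotid (circles) and submandibular gland (squares), with bars of 95% intervals and filled symbols at an edgeR adjusted p under 0.05. All 10 genes lie to the right of 0 in submandibular gland, and Scel and Dsc3 lie to the left of it in parotid.

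Between the layers, the question was where the genes were expressed in each gland. In submandibular gland all 10 were higher in epithelium than in mesenchyme, where 33.3% of all genes were called higher, 33.7% lower and 67% in either direction. Every epithelial library exceeded every mesenchymal one for the 10 genes, as for 31.2% of all genes. In parotid gland 6 of the 10 were higher in epithelium (Sfn, Perp, Dsg2, Dsc2, Dsp and Pkp1), 2 were lower (Scel and Dsc3) and 2 were not called (Jup and Dsg3). Over all genes in parotid, 64.9% were called, 31.4% higher and 33.5% lower. Its libraries were above those of mesenchyme without overlap for 5 of the 10 genes and below for 1, against 27.8% and 30% of all genes. These comparisons share their libraries with the gland comparisons, so they restate the same levels from another side.

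Perp had the strongest layer difference of the 10 in parotid gland, with a log2 fold change of 7.03 (SE 0.62, edgeR adjusted p = 1.59e-07), and 8.63 in submandibular gland (SE 0.67, adjusted p = 3.6e-08). Sfn was 52.0-fold higher in epithelium than in mesenchyme in parotid and 549-fold higher in submandibular gland. Dsc2 was 7.71-fold higher in parotid epithelium than in its mesenchyme and 234-fold higher in submandibular gland. Dsg2 and Dsp, the broad junction genes, were 72.7-fold and 85.2-fold higher in parotid epithelium, and 28.4-fold and 68.6-fold higher in submandibular epithelium. For Pkp1 the folds were 6.08 in parotid and 202 in submandibular gland. Parotid mesenchyme replicate 1 bore on the folds of 5 genes in parotid, which without it were 32.99 for Pkp1, 117 for Dsg2, 128 for Sfn, 236 for Dsp and 245 for Perp. In submandibular gland Sfn was 1657-fold and Perp 843-fold higher in epithelium without mesenchyme replicate 3, and Dsc3 was 293-fold higher without mesenchyme replicate 4 (log2 8.20, against 6.94 with it).

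Scel was 14.1-fold lower in parotid epithelium than in parotid mesenchyme (log2 -3.82, SE 0.70, edgeR adjusted p = 0.000139), and none of its libraries overlapped. Without parotid epithelium replicate 1, which held 7 of the 8 epithelial counts, it was 62.6-fold lower. Dsc3 was 2.36-fold lower there (log2 -1.24, SE 0.43, adjusted p = 0.0182), with libraries that overlapped slightly, since replicate 1 of epithelium at 2.33 CPM exceeded replicate 4 of mesenchyme at 2.24 CPM. That call was lost with limma-voom (adjusted p = 0.0515), without parotid epithelium replicate 3 (adjusted p = 0.0511) and without parotid mesenchyme replicate 2 (adjusted p = 0.0741). Jup differed by 0.25 in parotid (SE 0.22, adjusted p = 0.33) and by 1.33 in submandibular gland (SE 0.23, adjusted p = 8.11e-05). Dsg3 was not called in parotid (log2 2.02, SE 1.18, adjusted p = 0.141), though it was without parotid mesenchyme replicate 1 (log2 5.59, adjusted p = 0.0187). In submandibular gland it had 125 counts in epithelium and 1 in mesenchyme, a ratio of 97.9 (95% exact interval 17.3 to 3898, counting error only; edgeR adjusted p = 0.000581; log2 6.04, or 7.74 without the library holding that count).

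The interaction tested whether epithelium and mesenchyme had the same gland difference. For 6 of the 10 genes the difference in epithelium was lower than that in mesenchyme, against 12.2% of all genes called in that direction, 8.67% in the other and 20.9% in all. The largest belonged to Scel (log2 -11.01, SE 1.00, edgeR adjusted p = 8.91e-07), Dsc3 (-8.17, SE 0.74, adjusted p = 8.39e-07) and Dsc2 (-4.92, SE 0.34, adjusted p = 4.16e-08). For these 3 genes the glands differed in opposite directions in the layers, with each direction called by itself. The difference was -13.15 for Scel without parotid epithelium replicate 1 and -9.43 for Dsc3 without submandibular mesenchyme replicate 4. Jup was called at -1.07 (SE 0.32, adjusted p = 0.0241), Pkp1 at -5.05 (SE 1.39, adjusted p = 0.0171) and Sfn at -3.40 (SE 1.07, adjusted p = 0.0347).

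The calls of Pkp1 and Sfn were lost without parotid mesenchyme replicate 1 (log2 -2.60, adjusted p = 0.359, and log2 -2.09, adjusted p = 0.269) and with limma-voom (log2 -3.50, adjusted p = 0.206, and log2 -3.29, adjusted p = 0.162). Those of Jup, Pkp1 and Sfn were lost without the filter on low counts, which left 3 of the 10. The call of Sfn was also lost when replicate 1 or 2 of parotid epithelium, replicate 2 of parotid mesenchyme, or replicate 1, 2 or 4 of submandibular mesenchyme was left out (adjusted p = 0.0516 to 0.0729), while without replicate 3 of submandibular mesenchyme it was called at -4.99 (adjusted p = 0.011). The call of Jup was lost without parotid mesenchyme replicate 2 or submandibular epithelium replicate 3 or 4 (adjusted p = 0.0513 to 0.0589). Dsg2 (1.35, adjusted p = 0.0813), Dsp (0.31, adjusted p = 0.82), Perp (-1.60, adjusted p = 0.207) and Dsg3 (-4.01, adjusted p = 0.204) were not called. Without parotid mesenchyme replicate 1 Dsg2 was called at 2.06 (adjusted p = 0.00502). It was also called without submandibular mesenchyme replicate 1 (1.56, adjusted p = 0.0434), and Perp without submandibular mesenchyme replicate 3 (-2.69, adjusted p = 0.039). Without both libraries that stood apart, 4 of the 10 were called lower (Scel, Dsc2, Dsc3 and Jup) and 2 higher (Dsg2 at 2.14 and Dsp at 2.06).

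**Figure D5:**
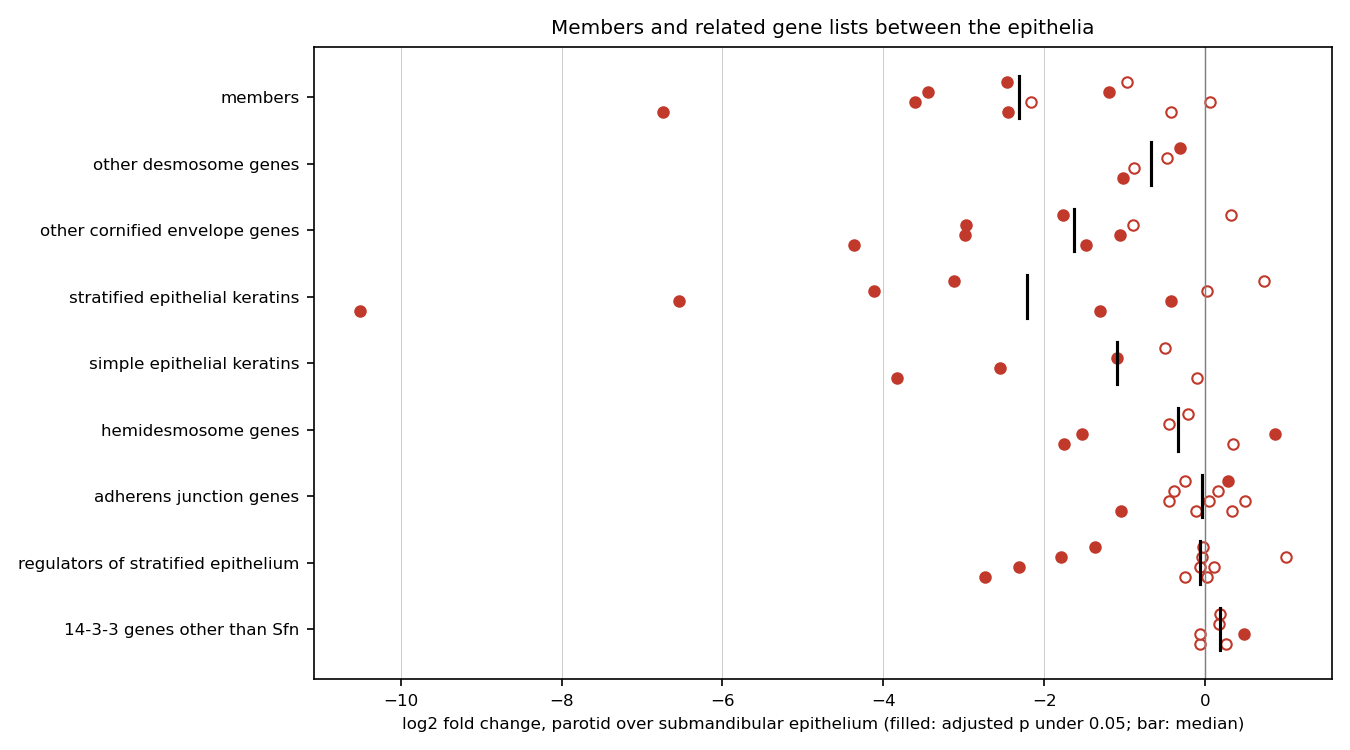
Log2 fold change, parotid over submandibular epithelium, of the 10 genes (top row, members) and of every tested gene in 8 related lists; filled circles have an edgeR adjusted p under 0.05 and vertical bars are medians. The 10 genes have a median of -2.31, the other cornified envelope genes -1.63 and the adherens junction genes -0.033.

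Related genes were counted in the same epithelial comparison, where 9.72% of all genes were called lower. Their calls are those of the fit to 16 libraries. The fit to the 8 epithelial libraries alone, which called Perp and Dsg2, is not given for these lists. Of 8 other desmosome genes 4 passed the filter, of which 2 were called lower: Pkp2, the plakophilin of heart and simple epithelia (log2 -1.03, SE 0.35, edgeR adjusted p = 0.049), and Pkp4 (log2 -0.32, SE 0.10, adjusted p = 0.0299). Pkp3 (-0.47, adjusted p = 0.302) and Dsg1c (-0.88, adjusted p = 0.344) were not called, and Dsg1a, Dsg1b, Dsg4 and Dsc1 were under the filter. Dsg1a nevertheless reached 3.13 CPM in a single submandibular epithelial library, while the median of that group was 0.0180 CPM. Of 25 other cornified envelope genes counted, 8 passed the filter, of which 6 were called lower and 0 higher. Sprr1a, among the 6, passed only through submandibular epithelium, with at most 0.289 CPM in parotid epithelium and 0 in both mesenchymes. It could thus not have been called higher. The plakins periplakin (Ppl) and envoplakin (Evpl), which form the scaffold of the envelope, were at 2.37 to 5.35 CPM and 4.24 to 9.88 CPM in parotid epithelium, against 22.9 to 45.6 CPM and 18.6 to 38.8 CPM in submandibular epithelium. Ppl fell by 2.97 on the log2 scale (SE 0.32, adjusted p = 7.39e-06) and Evpl by 1.77 (SE 0.31, adjusted p = 0.000662).

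The late envelope proteins were scarce in both epithelia. Loricrin (Lor) was at most 0.0964 CPM in parotid epithelium, against 0.623 to 1.17 CPM in submandibular epithelium, and Sprr1a was at most 0.289 CPM, against 0.645 to 1.11 CPM. Both were called lower, and transglutaminase 1 (Tgm1), which cross-links the envelope, was too (log2 -1.05, SE 0.29, adjusted p = 0.0173). Involucrin (Ivl) was at 0.801 to 2.25 CPM in parotid epithelium, against 0.863 to 1.32 CPM in submandibular epithelium, overlapped, and was not called (edgeR adjusted p = 0.608). In mesenchyme Lor, like Scel, was higher in parotid, at 0.590 to 1.42 CPM, against 0.206 to 0.306 CPM in submandibular mesenchyme (log2 1.83, adjusted p = 0.00484). It was the only one called of the 8 tested there.

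Keratins, the filaments that desmosomes hold, were called lower in parotid epithelium for 6 of 8 stratified and 3 of 5 simple ones tested. Krt4 and Krt6a, among the stratified ones, passed the filter only through submandibular epithelium, so neither could have been called higher. Krt6a was at 0.297 to 0.563 CPM in parotid epithelium, against 27.7 to 49.2 CPM in submandibular epithelium, and Krt19 at 4.67 to 9.43 CPM, against 62.6 to 113 CPM. Krt14, the basal partner of Krt5, was not called (log2 0.03, adjusted p = 0.98), while Krt5 itself fell by 3.12 (log2, SE 0.61, edgeR adjusted p = 0.00286). Of 6 hemidesmosome genes, whose junctions hold cells to the basement membrane, 2 were lower (Dst and Col17a1), 1 higher (Itgb4) and 3 not called. Of 10 adherens junction genes, 1 was lower (Nectin4), 1 higher (Nectin3) and 8 not called, with a median log2 fold change of -0.033; Cdh1 was among those not called (-0.39, SE 0.49, adjusted p = 0.618). Of the 6 other 14-3-3 genes, 1 was higher (Ywhah) and 5 were not called.

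Of 11 regulators of stratified epithelium, 4 were called lower in parotid epithelium and 0 higher. These were Ovol1 (log2 -2.74, SE 0.35, edgeR adjusted p = 4.18e-05), Grhl3 (-2.31, SE 0.39, adjusted p = 0.000601), Zfp750 (-1.79, SE 0.38, adjusted p = 0.00311) and Klf5 (-1.37, SE 0.21, adjusted p = 0.000247). Grhl3 is a grainyhead factor that mouse epidermis needs to form its barrier. Trp63, the regulator of basal epithelial cells, was at 398 to 453 CPM in parotid epithelium, against 386 to 468 CPM in submandibular epithelium, and was not called (log2 -0.03, SE 0.36, adjusted p = 0.969).

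Genes with the nearest pattern were found by the root mean square difference of centred log2 CPM over the 16 libraries, as a description. The nearest to Dsc2 was Krt7 (0.461), followed by Grhl3 (0.607), and Krt7 averaged 5.18 CPM in parotid epithelium, 30.3 CPM in submandibular epithelium, 0.521 CPM in parotid mesenchyme and 0.0655 CPM in submandibular mesenchyme. Nearest to Pkp1 were Gabrp (0.916), Krt19 (0.945) and Ovol1 (0.953). Scel had no close match, its nearest being Anxa8 (1.08), Fgfr3 (1.089) and Lypd2 (1.11). For Dsc3 the nearest was Rab38 (0.830), which averaged 8.31 CPM in parotid epithelium, 30.8 CPM in submandibular epithelium, 8.57 CPM in parotid mesenchyme and 0.907 CPM in submandibular mesenchyme. Sfn was nearest to Wnt6 (0.716) and Dsp to Tmem54 (0.578), with Trp63 among the 3 nearest to Dsp (0.708).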

How the data were processed

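The 16 bulk RNA-seq libraries were put in 4 groups by their titles. In the deposited column names, the sample numbers of the parotid libraries form a run apart from that of the submandibular libraries. The names do not say what these numbers stand for. Gland and numbering cannot be told apart in any gland difference. The kits, per the labels' protocols, made full-length cDNA and cut it with a transposase, which does not mark strand, and the RNA integrity number was above 8.7. STAR 2.5.2a, edgeR and the build GRCm38 (mm10) are named in the submitters' processing notes. No read counter or annotation is named in those notes or labels. The raw table deposited by the authors held whole-number counts for 48709 gene features and 92 synthetic spike-in features, and a second one the 23400 features with 6 or more counts in a library. A further table deposited by the authors held a normalized signal, which it names CPM, and was used for symbols and as a check: CPM recomputed here differed from it by at most 4.45% for the 10 genes.

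Spike-in features were left out. Counts were scaled by TMM, filtered by filterByExpr on the groups (18191 genes kept) and tested by robust quasi-likelihood F tests of edgeR 4.0.16 under R 4.3.3, with 1 coefficient per group, with Benjamini-Hochberg adjustment over all genes and calls under 0.05. SE is the log2 fold change divided by the root of F, and 95% intervals use the normal quantile. Ratios of counts used a pseudocount of 0.5 and exact permutation tests. Exon lengths were unions from GENCODE. In simulated counts for the epithelial gland comparison, made from these libraries with 100 genes changed 2-fold and 100 changed 4-fold, 71 and 98 were recovered, and 7.65% of calls were false. Each simulated gene had 1 mean over all libraries, with no layer difference, and the changed genes averaged 1 CPM or more. These rates therefore do not cover scarcer genes such as Dsg3. Depths were 21307466 to 23885698 in parotid epithelium, 19090077 to 27646844 in submandibular epithelium, 19080629 to 25846015 in parotid mesenchyme and 16912258 to 18583164 in submandibular mesenchyme. Counting intervals and floors cover counting error only. All 24 pairs of libraries within a group differed by more than sampling noise (chi-square per gene 10.5 to 54.0). The alternatives run were DESeq2 1.42.0, voom of limma 3.58.1, other scalings, other filters, a fit to the 8 libraries compared, a replicate block and leaving out each library. All 10 genes are named; from each related list up to 4 called genes with the largest changes in the epithelial comparison are named, with others as values, and up to 3 nearest genes for each called member. The 10 genes, the lists and the rules were chosen with earlier results of these data known.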

Additional observations from a re-analysis of the deposited data

Results flagged for a closer look

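In 7 of the 40 groups of 4 libraries, a gene and a group at a time, a single library stood apart by Dixon's test at the 95% level. The nominal rate of 1 in 20 holds for normally spread values and is no yardstick here. A group with counts in 1 library alone is always flagged, as was Dsg3 in both mesenchymes. Dsp was at 199 CPM in submandibular epithelium replicate 3, and the other 3 libraries were at 97.1 to 110.3 CPM. Parotid mesenchyme replicate 1 stood above its group for Dsp (2.04 CPM), Pkp1 (1.34 CPM) and Dsg3 (0.268 CPM, the only library of the group with counts). Sfn was at 0.671 CPM in submandibular mesenchyme replicate 3 and Dsg3 at 0.0499 CPM in replicate 2, a single count. Scel was at 0.297 CPM in parotid epithelium replicate 1, from 7 counts.

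For 6 genes the gland difference was not the same in the layers by the interaction term of the edgeR fit (4 libraries a group): Scel (log2 -11.01, adjusted p = 8.91e-07), Dsc3 (-8.17, adjusted p = 8.39e-07), Dsc2 (-4.92, adjusted p = 4.16e-08), Pkp1 (-5.05, adjusted p = 0.0171), Sfn (-3.40, adjusted p = 0.0347) and Jup (-1.07, adjusted p = 0.0241). For Scel, Dsc2 and Dsc3 all 4 parotid libraries were below the submandibular ones in epithelium and above them in mesenchyme.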

How the results depend on the processing

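Of 1290 values of single genes under an alternative, 1231 kept their direction and their side of the threshold, 32 lost a call, 14 gained one and 13 changed sign; none of those that changed sign was called. The cause was not tested for any change below. Counts of the 10 genes called in the interaction were 6, and 3 without the filter. All genes called in epithelium numbered 3801, and 2452 without submandibular epithelium replicate 1 (2452 to 4540 when each library was left out). With limma-voom Pkp1 in mesenchyme was -0.158 (log2). Without the pair of libraries that stood apart, chosen after seeing the data, the gland difference in mesenchyme was -0.346 for Sfn, -0.26 for Perp, -1.722 for Dsg3 and -0.979 for Pkp1. Leaving out each library gave -0.061 to 0.245 for Jup in epithelium, -0.358 to 2.534 for Sfn, -0.27 to 1.724 for Perp, -1.706 to 3.547 for Dsg3 and -0.991 to 2.022 for Pkp1 in mesenchyme, and -0.106 to 1.794 for Dsp in the interaction. Calls among the 10 ranged over 5 to 6 in epithelium, 5 to 6 in mesenchyme, 7 to 9 between the layers in parotid and 4 to 7 in the interaction, and stayed at 10 in submandibular gland.

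Other scalings changed no call of the 10 genes. Scaling on library totals moved the median of all genes in the mesenchymal comparison to -0.137 and the higher share of its calls to 37.4%, and upper-quartile scaling that share to 46.2%, against 60.3% with TMM; for the interaction, library totals gave 59.8%, against 41.5%. Same-numbered libraries of different groups correlated at -0.12 to 0.218, and 5 of 16 matched their own number best. The highest values, 0.215 and 0.218, were between submandibular epithelium and mesenchyme for replicates 1 and 2. Pairing by number was thus not shown, and so few replicates cannot exclude it. With the replicate block 5 of the 10 were called in epithelium, Dsp being lost (edgeR adjusted p = 0.0721). Counts limit Scel in parotid epithelium (8 in all), Scel in submandibular mesenchyme (5) and Dsg3 in both mesenchymes (5 and 1).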
